A study of Homo sapiens with 40 samples.

Results

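EGF-BT474 at 12 h was examined through 4 ATAC-seq peak lists, 2 from cells given epidermal growth factor (EGF) and 2 from cells given vehicle, out of 40 lists in the whole series. BT474 is a cell line from a ductal carcinoma of the breast. It overexpresses HER2 and responds to trastuzumab, an antibody against HER2. Both groups were serum-starved, and the ligand or vehicle (water) was then added in fresh starvation medium for 12 h, so starvation is shared by the control. Treatments were made in duplicate, and the labels do not say whether duplicates came from separate cultures, so the spread between them may be technical. The members were all places where at least 1 of the 4 lists had a peak: peaks that overlapped by at least 1 bp were merged, which gave 58791 regions on chromosomes 1 to 22 and X, against 76603 regions when all 40 lists were merged. A region with a peak in both EGF lists and in neither control list is called gained here, and one with a peak in both control lists and in neither EGF list is called lost.

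EGF binds the receptor EGFR, which pairs with HER2 and other members of its family and passes the signal to the RAS-ERK and PI3K-AKT pathways. ERK activity induces immediate early genes, among them the FOS and JUN families, whose proteins pair to form the transcription factor AP-1. AP-1 binds a short palindromic element, often in enhancers that lie away from gene starts, and its targets include inhibitors that feed back on the pathway.

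Sequences are shown for 5 regions to make the classes concrete. Each run is the plus strand of GRCh38, 100 bases either side of the point where the peak was highest (its summit), with AP-1 elements (TGACTCA on either strand) in capitals. The first was the gained region with the highest peaks, the next 2 were the strongest gained regions assigned to the genes with the most of them, the fourth had a peak in all 4 lists and the largest difference between groups, and the last was the lost region with the highest peaks. The first window, chr16:66082055-66082255, was intergenic and held 2 elements, and the next windows, chr20:50440886-50441086 and chr3:150362519-150362719, were intergenic with 1 each. The fourth, chr6:82646349-82646549, was intergenic with 1 element, and the last, chr12:52060251-52060451, was intergenic, 3747 bp from a start site of NR4A1, and held none.
gained, chromosome 16: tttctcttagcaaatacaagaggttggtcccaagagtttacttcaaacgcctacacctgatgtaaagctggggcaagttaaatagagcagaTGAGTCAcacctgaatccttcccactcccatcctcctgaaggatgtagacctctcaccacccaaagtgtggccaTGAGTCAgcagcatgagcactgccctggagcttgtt
gained, assigned to PTPN1: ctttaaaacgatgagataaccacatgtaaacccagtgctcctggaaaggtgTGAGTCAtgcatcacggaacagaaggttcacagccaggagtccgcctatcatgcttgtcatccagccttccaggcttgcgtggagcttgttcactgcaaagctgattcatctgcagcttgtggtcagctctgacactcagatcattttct
gained, assigned to TSC22D2: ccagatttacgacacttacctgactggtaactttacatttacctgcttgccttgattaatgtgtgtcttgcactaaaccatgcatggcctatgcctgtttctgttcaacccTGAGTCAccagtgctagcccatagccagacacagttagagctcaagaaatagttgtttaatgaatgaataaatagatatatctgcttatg
higher, chromosome 6: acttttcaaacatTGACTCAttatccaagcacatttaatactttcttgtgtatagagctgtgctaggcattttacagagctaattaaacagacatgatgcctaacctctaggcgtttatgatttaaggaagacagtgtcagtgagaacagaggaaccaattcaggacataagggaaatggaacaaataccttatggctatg
lost, near NR4A1: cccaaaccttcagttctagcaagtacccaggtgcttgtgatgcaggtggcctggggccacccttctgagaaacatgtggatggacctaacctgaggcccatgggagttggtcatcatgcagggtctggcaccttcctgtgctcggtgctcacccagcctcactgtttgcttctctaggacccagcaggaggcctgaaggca

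The EGF lists held 52135 and 56846 peaks and the control lists 49386 and 49767. Both EGF lists were longer than both control lists, by 4914 peaks on average, and with 2 libraries a group the exact permutation p was 0.333, the smallest this design allows. Without EGF replicate 2 the difference was 2558.5 peaks. EGF replicate 2 had more peaks than any other of the 20 BT474 lists, whose range was 47571 to 56846. The lists give no read totals, so depth was unknown and a place without a peak is one where none was called. As a check of identity, the promoters of 8 of 8 luminal epithelial markers, ERBB2, KRT8 and FOXA1 among them, had a peak in all 4 lists. Of 14 markers of other cell types, PTPRC, CD3E, PECAM1, VWF, COL1A2, ALB, NEUROD1 and MYOD1 were among those with none, while CDH5, COL1A1 and ACTA2 had one in all 4.

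Chromatin was gained far more often than it was lost at 12 h. There were 2713 gained regions (4.61% of the 58791) and 262 lost regions (0.446%), while 43921 regions (74.7%) had a peak in all 4 lists. Of the 4753 regions with a peak in exactly 2 lists, 2713 followed EGF and 262 the control. The other splits of the same lists held fewer than the EGF split: 375 regions for both replicates 1, 643 for both replicates 2, 237 for EGF replicate 1 with control replicate 2, and 523 for EGF replicate 2 with control replicate 1. The imbalance depended on list length. When each list was cut to its 49386 highest peaks, 1530 regions were gained and 862 lost. Leaving out 1 library removes a condition and so raises the counts: gained regions numbered 6879 without EGF replicate 1, 3630 without EGF replicate 2, 4043 without control replicate 1 and 4134 without control replicate 2, and lost regions between 731 and 988.

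**Figure D1:**
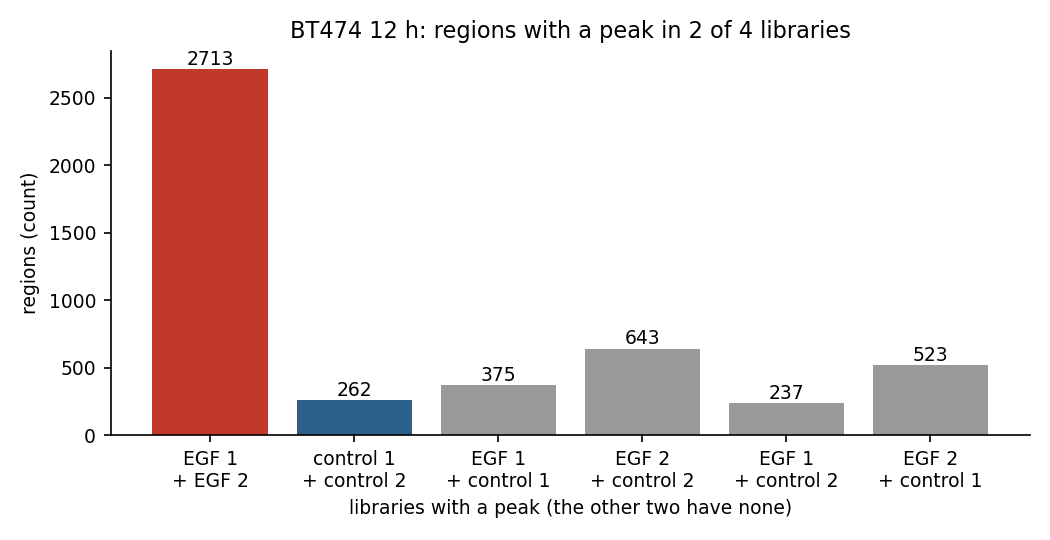
Number of regions (vertical axis) with a peak in exactly 2 of the 4 BT474 12 h libraries, by which 2 libraries had the peak. The EGF pair held 2713 regions and the control pair 262, and the 4 mixed pairs held between 237 and 643.

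Peak strength was compared as a rank percentile, the position of a peak's score among all scores of its own list, where 100 is the strongest. Gained regions were mostly weak: the median of their mean EGF percentile was 14.6, with a highest value of 65.1, and 14 of 2713 reached 50. The median in EGF replicate 1 was 10.0 and in EGF replicate 2 it was 19.3. Lost regions had a median control percentile of 7.86, and 1 of 262 reached 50.

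The 8 gained regions with the strongest peaks had summits more than 1 kb from a protein-coding start, the closest at 1356 bp. The strongest, on chromosome 16 (66081874 to 66082322, intergenic, 284536 bp from the nearest protein-coding start, that of CDH5), stood at percentile 60.9 in EGF replicate 1 and 69.2 in EGF replicate 2, with no peak in either control. The next, in an intron of SHB on chromosome 9 (37953751 to 37954489), stood at 61.6 and 65.7 in the EGF lists. SHB is an adaptor protein that links tyrosine kinase receptors to their effectors. Both of these regions were above the median of all peaks in both EGF lists. An intergenic region on chromosome 1 (220369953 to 220370760) had values of 52.2 and 67.2, and one in an intron of the noncoding gene LINC00578 on chromosome 3 (177615000 to 177615450) had 52.6 and 59.6. A region in an intron of TOM1, a protein of endosomal sorting (chromosome 22, 35312170 to 35313044), had 53.3 and 57.7. Its summit was the one 1356 bp from a start, that of TOM1. The others were in introns of SNX29 (chromosome 16, 12038703 to 12039547, 55.1 and 54.2), ABCC3 (chromosome 17, 50689287 to 50690545, 50.4 and 58.1) and CACNG4 (chromosome 17, 67018589 to 67019572, 47.9 and 58.6). ABCC3 is an efflux transporter of organic anions and CACNG4 a calcium channel subunit. All 8 had a peak in both EGF lists at 24 h and in both HRG lists at 12 h, and each also had a peak in 2 to 5 of the 6 other baseline and control lists of BT474.

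The lost region with the strongest peaks was near NR4A1, an immediate early gene that encodes an orphan nuclear receptor. It (chromosome 12, 52059511 to 52060814, intergenic, 3747 bp from a start site) stood at percentile 74.6 and 68.9 in the controls and had no peak in either EGF list. A second NR4A1 region, in an intron (52056885 to 52057809), stood at 40.2 and 31.7 in the controls. One more, in an NR4A1 exon 283 bp from a start site (52055980 to 52056714), stood at 26.8 and 11.9. NR4A1 thus had 3 lost regions, while 7 of its 12 regions had a peak in all 4 lists. The 3 are neighbours and may not be separate losses. In control replicate 1 at 24 h the exon and intron regions had the same percentile, 69.4, as 1 peak across both would give. The strongest of the 3 was absent from both control lists at 1 h, stood at 67.4 and 75.1 in the EGF lists at 1 h and at 66.6 and 64.8 in the control lists at 24 h, and had no peak in either EGF list at 24 h. Its peaks were therefore present with EGF at 1 h and without EGF at 12 and 24 h. This course was not particular to EGF: the HRG lists stood at 84.0 and 86.3 at 1 h and had no peak at 12 or 24 h. Baseline replicate 2 had a weak peak there, at 3.70. The other named lost regions were intergenic: one on chromosome 7 (41188468 to 41189182), next in strength after the first, at 43.4 and 49.3 in the controls and 511939 bp from INHBA, and one on chromosome 3 (181941331 to 181941867) at 31.0 and 34.2, 229492 bp from SOX2.

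**Figure D2:**
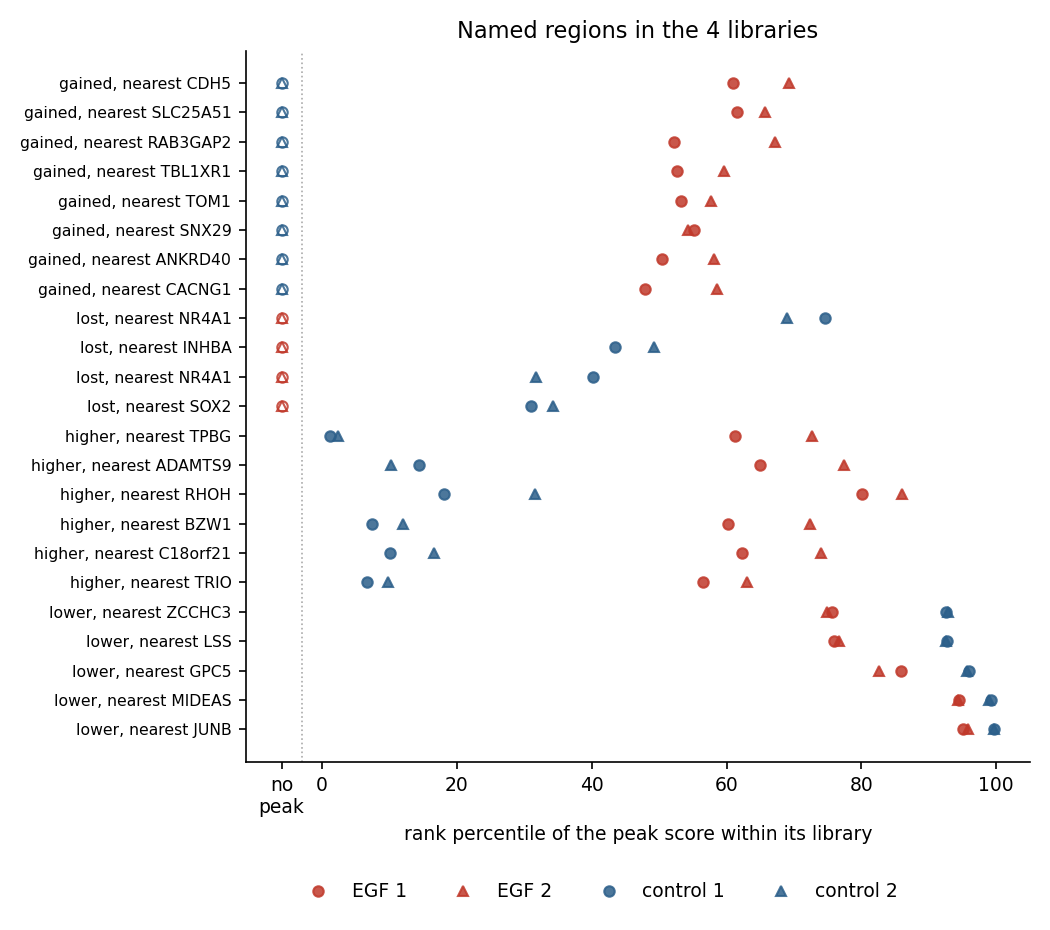
Rank percentile of the peak score (horizontal axis, within each library) for the named gained, lost, higher and lower regions (rows, with the nearest protein-coding start), in EGF (red) and control (blue) replicates 1 (circles) and 2 (triangles); open symbols at the left stand for no peak. The 8 gained regions lie between 47.9 and 69.2 in the EGF libraries and the 4 lost ones between 31.0 and 74.6 in the controls.

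Gained regions were mostly distal. Of the 2713, 338 (12.5%) had their summit within 1 kb of a transcript start, against 38.1% of regions with a peak in all 4 lists, 22.5% of the 1778 regions with a peak in 1 EGF and 1 control list, and 26.3% of the lost regions. The last 2 classes are comparable in width, with medians of 286 bp and 329 bp against 325 bp for gained regions, whereas regions in all 4 lists had a median of 627 bp. The median distance to a start was 7976 bp for gained regions, 7509 bp for lost regions, 6296 bp for regions with 1 EGF and 1 control peak and 3046 bp for regions in all 4 lists. The lists differed in the same direction: 36.0% and 33.4% of peaks were at promoters in the EGF lists and 37.4% and 37.2% in the controls, -2.58 percentage points apart (p = 0.333 by exact permutation, again the smallest possible). That difference was -1.33 without EGF replicate 2 and -1.05 with lists of equal length. The gained regions were spread over all 23 chromosomes, from 3.38% of regions on chromosome 19 to 5.53% on chromosome 22.

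The AP-1 element was more frequent in gained regions than in the other classes. It was found within 100 bp of the summit in 913 of 2713 gained regions (33.7%, 95% Wilson interval 31.9 to 35.5), in 4 of 262 lost regions (1.53%, 0.595 to 3.86), in 4.89% of regions with 1 EGF and 1 control peak, in 10.4% of regions in all 4 lists and in 12.0% of all regions. These intervals treat regions as independent, which they are not, and cover counting error only. The share among gained regions was 34.4% away from promoters and 28.1% within 1 kb of a start, against 15.1% of all distal regions. It was 39.7% with lists of equal length, where 2.20% of the lost regions held the element, and between 26.0% and 28.4% when any 1 library was left out. The element lay at a median of 27 bp from the summit in the gained regions that held it.

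Other elements differed from all regions by fewer percentage points, and some were rarer in gained regions, several of them by a larger ratio than AP-1 was more frequent. Searched on both strands in the same window, the element AGGTCA, a part of the estrogen response element (ERE), was found in 16.2% of gained, 9.54% of lost and 11.5% of all regions, and the C/EBP element TTGCNNAA in 14.1%, 7.25% and 10.4%. The SP/KLF element GGGCGGGG, typical of promoters, was found in 1.07% of gained and 8.02% of lost regions against 8.90% of all, and the core element of the insulator protein CTCF in 0.442% and 4.58% against 2.03%. Forkhead (TGTTTAC) elements were found in 9.18% of gained and 8.33% of all regions, TEAD (ACATTCC) in 5.20% and 4.47%, and RUNX (TGTGGTT) in 5.60% and 4.05%. The element AGATAAG of GATA factors stood at 2.25% and 2.17%, TFAP2 (GCCNNNGGC) at 12.2% and 16.9%, and NF-Y (CCAATCA) at 2.80% and 3.97%. ETS (ACCGGAAG), CRE (TGACGTCA) and GRHL (AACCNGGTT) were rarer still, at 0.221%, 0.295% and 0.332% of gained and 0.908%, 0.714% and 0.194% of all regions. Gained regions were more often distal than all regions, and among distal regions several differences turned. There, forkhead elements were found in 9.43% of gained and 10.7% of all regions, TEAD in 5.31% and 5.51%, and GATA in 2.36% and 2.83%. NF-Y stood at 2.91% and 2.58% and CRE at 0.295% and 0.266%. The other elements kept their direction, among them AGGTCA (16.2% and 13.5%), C/EBP (14.7% and 12.8%) and RUNX (5.39% and 4.77%). Base composition moved with the classes: the median GC content of the window was 48.3% in gained regions, 51.7% in lost regions and 54.7% in regions with a peak in all 4 lists, and its part in these shares was not tested.

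**Figure D3:**
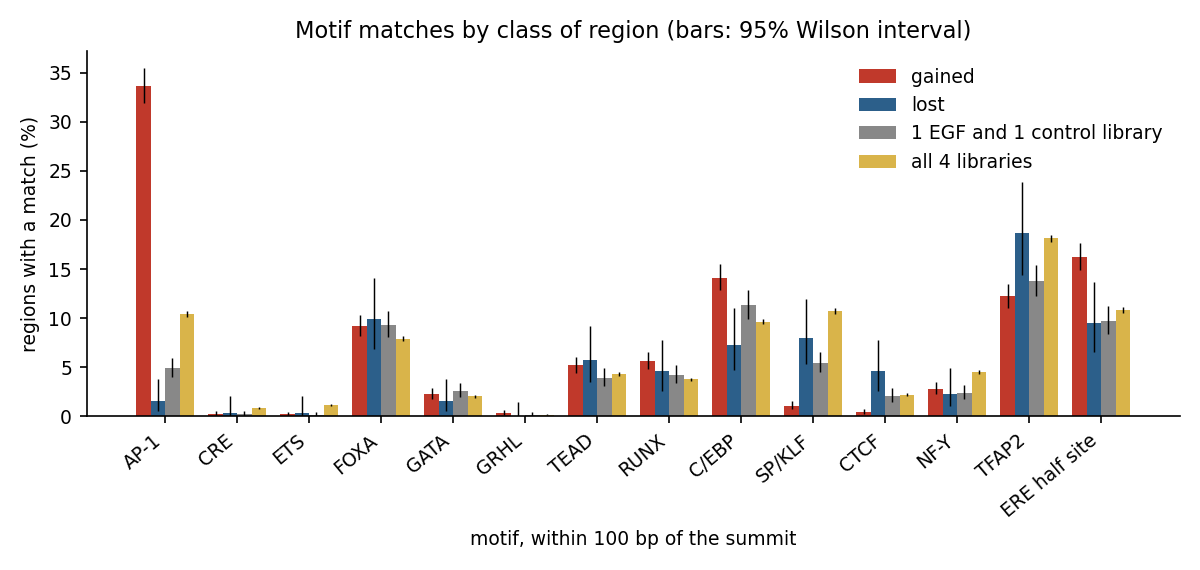
Percent of regions (vertical axis) with at least 1 match to each of 14 motifs (horizontal axis) within 100 bp of the summit, for gained, lost, 1 EGF plus 1 control, and all-4 regions, with 95% Wilson intervals. AP-1 was found in 33.7% of gained and 1.53% of lost regions.

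Among gained regions, the AP-1 share was higher where the peaks were stronger and where no other baseline or control list had a peak. It was also higher where the EGF lists at 1 h had peaks as well, but not where only those at 24 h did. It was 22.2% among the 679 regions with the weakest EGF peaks and 46.9% among the 678 with the strongest. Of the 948 gained regions with no peak in any of the 6 other baseline and control lists of BT474, 44.9% held the element, against 23.4% of the 453 with a peak in 4 to 6 of them. It was found in 51.7% of the 894 regions that also had peaks in both EGF lists at 1 h and both at 24 h. The share was 21.1% of the 601 with peaks in both at 24 h and in neither at 1 h, and 24.1% of the 315 with none in either at 24 h. Of the 1959 with peaks in both HRG lists at 12 h 40.8% held the element, against 8.46% of the 272 with none in either.

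The libraries that took no part in choosing the regions allowed a check in other samples. At 24 h, 76.9% and 81.5% of the gained regions had a peak in the 2 EGF lists, against 31.0% and 23.9% in the 2 control lists. At 1 h the shares were 58.1% and 48.1% with EGF and 29.1% and 27.9% in the controls, and at baseline they were 33.5% and 20.2%. At 1 and 24 h both EGF lists held more of the gained regions than both control lists. The 24 h lists differed in length as those at 12 h did, with 55225 and 56363 peaks with EGF and 52331 and 50579 in the controls. At 1 h they held 52629 and 48883 with EGF and 48788 and 49195 in the controls. These shares were not corrected for list length. The same criterion of 2 of 2 against 0 of 2 was met again by 1099 gained regions (40.5%) at 24 h and 508 (18.7%) at 1 h. Among the regions with 1 EGF and 1 control peak at 12 h it was met by 7.14% and 4.67%. It was met by 4.29% and 2.36% of all regions, but most of these had a peak in all 4 lists and seldom lacked one elsewhere in BT474. Heregulin (HRG), which binds HER3 and HER4, gave shares of 79.2% and 83.0% in its 2 lists at 12 h, a comparison that uses the same control lists. In BT474R, the trastuzumab-resistant clone derived from BT474, 63.8% and 63.6% of the gained regions had a peak in the EGF lists at 24 h and 29.4% and 39.5% in the controls. At 12 h in BT474R the shares were 39.3% and 36.5% with EGF and 15.2% and 28.4% in the controls. At 1 h they were 56.5% and 51.0% with EGF and 57.5% and 55.1% in the controls, where the EGF lists were not the higher ones. The BT474R lists differed in length. At 24 h they held 52126 and 51080 peaks with EGF and 41833 and 45799 in the controls, and at 12 h 38205 and 37476 against 32479 and 40331. Of the regions with a peak in all 4 BT474 lists, 70.5% and 69.9% had one with EGF at 12 h in BT474R, and 63.8% and 74.7% in the controls.

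The lost regions gave the reverse at 24 h and no clear split at 1 h. At 24 h they had a peak in 33.6% and 46.2% of cases in the EGF lists and in 75.6% and 68.7% in the controls, so the groups did not overlap. At 1 h the EGF values were 51.5% and 30.2% and the control values 40.5% and 44.3%, which overlap. A total of 63 of the 262 (24.0%) were lost again at 24 h, against 9.17% of regions with 1 EGF and 1 control peak and 1.48% of all regions.

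**Figure D4:**
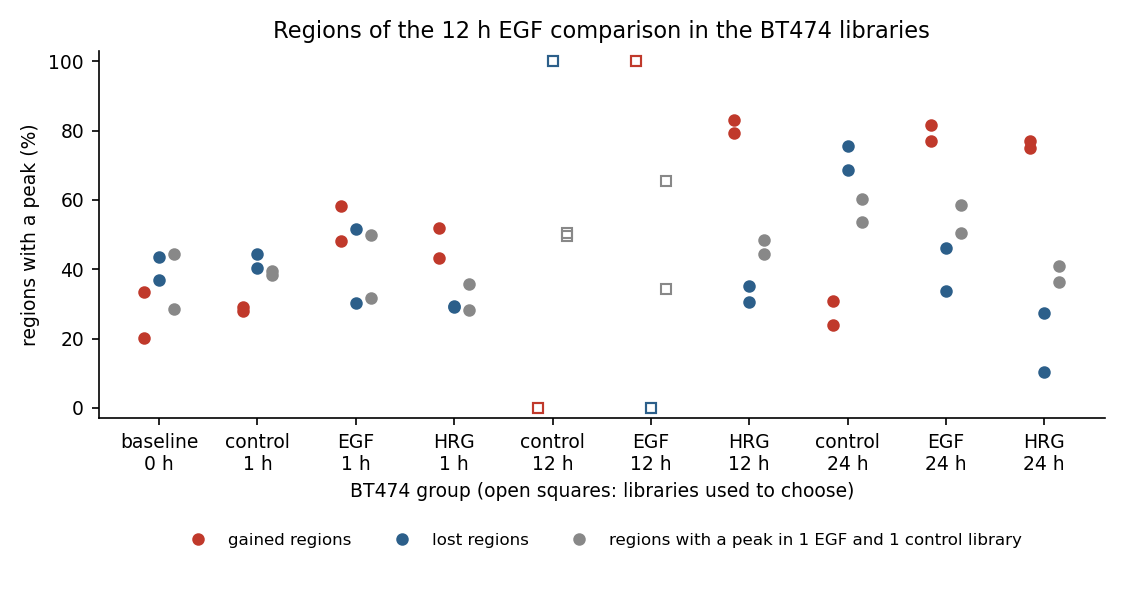
Percent of gained, lost and mixed (1 EGF and 1 control) regions (vertical axis) that had a peak in each of the 20 BT474 libraries, by group (horizontal axis, 1 point per library, 2 per group). Open squares are the 4 libraries that defined the classes; gained regions stand at 76.9% and 81.5% in the 24 h EGF libraries and at 31.0% and 23.9% in the 24 h controls.

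Regions with a peak in all 4 lists were compared by the rank percentile of the strongest peak in the region, in limma. Of 43921 tested, 77 had a higher percentile after EGF (0.175%) and 5 a lower one (0.0114%) at a Benjamini-Hochberg adjusted p under 0.05, and 6172 had an unadjusted p under 0.05. The median difference over all tested regions was 1.77 percentile points towards EGF, whose lists were also the longer ones. After ranking again within these 43921 regions the median was -0.65 and the counts were 36 higher and 4 lower, all of them among the 82. The counts depended on single libraries: there were 2654 higher and 489 lower without EGF replicate 1, 32 and 7 without EGF replicate 2, 818 and 58 without control replicate 1, and 915 and 106 without control replicate 2.

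Most of these calls went with a difference in how the peak caller divided a region. At 52 of the 77 higher regions both control lists had more peaks than both EGF lists, against 0.389% of all tested regions, and at 5 of the 5 lower regions both EGF lists had more peaks than both control lists, against 0.168%. When the scores of all peaks in a region were summed before ranking, an alternative chosen after these values were seen, limma called 605 regions higher and 9 lower. Of the 77 higher regions 45 were among those called, and of the 5 lower ones 0. Among the 41563 regions with 1 peak in each list, tested on their own, 563 were higher and 6 lower. The higher direction was thus the more frequent one under either treatment of divided peaks, while the single lower calls were not kept. Both fits used percentiles within whole lists, with medians of 1.84 and 1.81 points towards EGF, and neither was ranked again within the tested regions. Their counts therefore still hold any effect of the longer EGF lists. Of the 77 higher regions 21 had 1 peak in each list, and 10 of those held an AP-1 element, against 24 of all 77. The median percentile of the 77 was 81.3 and 82.5 in the 12 h controls, but 85.6 to 89.7 in the 6 other baseline and control lists. At 24 h both EGF lists were above both controls at 71.4% of the 77 and below at 2.60%, against 43.1% and 18.9% of regions with a peak in all 4 lists. At 1 h the shares were 32.5% above and 32.5% below, against 30.4% and 18.0%.

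**Figure D5:**
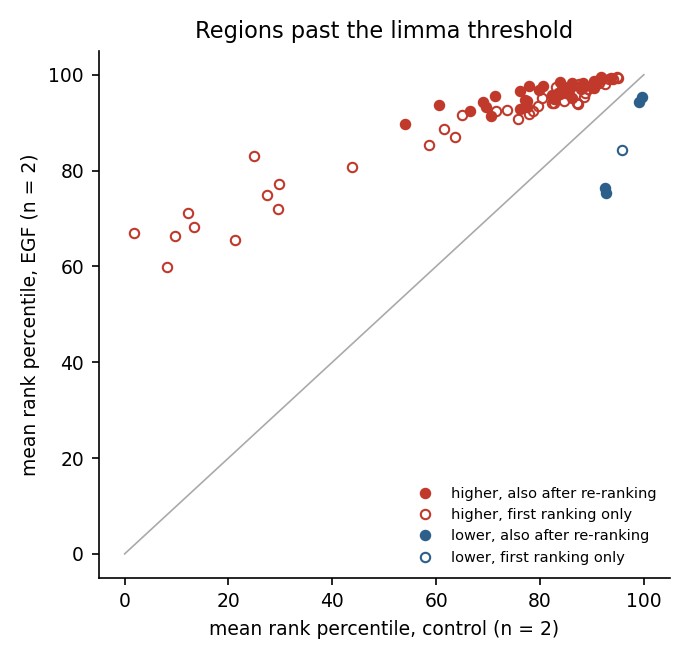
Mean rank percentile of the strongest peak in the 2 EGF libraries (vertical axis) against that in the 2 control libraries (horizontal axis) for the 82 regions past the limma threshold, with the line of equality. Filled points (36 higher, 4 lower) also passed after ranking again within the regions with a peak in all 4 lists; 52 of the 77 higher regions were divided into more peaks in both controls and all 5 lower regions into more peaks in both EGF libraries.

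The largest differences were at regions that had weak peaks in the 12 h controls. At an intergenic region of chromosome 6 (82645977 to 82646748) the percentile was 61.3 and 72.6 in the EGF lists and 1.14 and 2.39 in the controls, a difference of 65.2 points (SE 5.95, limma adjusted p = 0.0230). In an intron of ADAMTS9, a secreted metalloproteinase (chromosome 3, 64551526 to 64552450), it was 65.0 and 77.4 against 14.4 and 10.2, a difference of 58.9 (SE 6.03, limma adjusted p = 0.0329). The groups did not overlap at either region, each had 1 peak in every list, and both passed with summed scores (limma adjusted p 0.0170 and 0.0211). Also with 1 peak in every list were a region in the pseudogene AOX2P (chromosome 2, 200765227 to 200765949), at 60.3 and 72.4 against 7.36 and 12.0, and an intergenic one on chromosome 18 (35937698 to 35938877), at 62.2 and 74.0 against 10.0 and 16.6. On chromosome 4 (40255038 to 40256364, intergenic) the values were 80.02 and 86.0 against 18.1 and 31.6, but the controls had 2 peaks there and summed scores gave 79.7 and 85.3 against 45.1 and 52.7. In an intron of TRIO, a guanine nucleotide exchange factor (chromosome 5, 14257973 to 14259066), they were 56.5 and 63.0 against 6.63 and 9.79, and the call was lost with summed scores (limma adjusted p 0.116). None of these 6 passed after ranking again (limma adjusted p 0.0592 to 0.0874) or without EGF replicate 2 (0.0620 to 0.0989), although the differences stayed between 47.0 and 61.4 points after ranking again and between 48.3 and 59.5 without EGF replicate 2. All 6 passed with the 20 BT474 libraries in the fit (1.21e-04 to 5.02e-03).

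The 5 regions with a lower percentile were all strong in the controls, and in each the controls had 1 peak and the EGF lists 2. One had its summit in an intron of HOOK2, 2193 bp from the start of JUNB, which encodes an AP-1 subunit (chromosome 19, 12791128 to 12794445). The region was 3318 bp wide, more than that distance, so the summit alone does not place it away from JUNB. Its strongest peak stood at 95.1 and 95.8 in the EGF lists and at 99.7 and 99.6 in the controls, a difference of -4.21 (SE 0.411, limma adjusted p = 0.0277). With summed scores the values were 99.4 and 99.3 against 99.6 and 99.5, a difference of -0.279 (limma adjusted p = 0.668). The others were at the promoters of ZCCHC3 (chromosome 20, 297160 to 298840) and MIDEAS (chromosome 14, 73757706 to 73760670), in a UTR of LSS, an enzyme of sterol synthesis (chromosome 21, 46188453 to 46190213), and between genes on chromosome 13 (91347241 to 91349451). Their differences ran from -4.68 to -17.4 points for the strongest peak and from -0.901 to 0.0841 with summed scores (limma adjusted p 0.494 to 0.978).

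Genes were then read by role, with each region assigned to the nearest protein-coding start within 100 kb. Of 15398 genes with a region, 1795 had a gained one (11.7%) and 198 a lost one (1.29%). The lists below were chosen with earlier results of these data known. Each share of regions is to be read against 4.61%, and most listed genes had more regions than the median of 2 over all genes. Presence was counted and not tested. Being absent from the 12 h controls did not make a region absent without EGF: 1765 gained regions (65.1%) had a peak in at least 1 of the 6 other baseline and control lists, and that number of lists is given for the stronger regions described.

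The 4 ERBB receptors each had 1 gained region, 4 of their 25 regions (16.0%). At ERBB2, which encodes HER2, it was in an intron 601 bp from a start site (chromosome 17, 39695036 to 39695761) at percentile 26.6 and 33.4 in the EGF lists. At ERBB3 it was intronic at 11.3 and 16.5 (chromosome 12, 56081893 to 56082307), and at ERBB4 intergenic, 9059 bp from a start, at 6.53 and 44.6 (chromosome 2, 212547790 to 212548382). EGFR had its gained region at a mean of 1.43, close to the bottom of the lists. The regions at ERBB2, ERBB3 and ERBB4 had a peak in 3, 0 and 2 of the 6 other baseline and control lists. Of 9 ligand genes with a region, AREG, which encodes the EGFR ligand amphiregulin, had 2 gained regions at means of 4.04 and 19.0, and the other 8 had none.

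The inhibitors that act back on ERK and EGFR had 9 gained of 129 regions (6.98%), in 8 of 19 genes. SPRED2, a RAS-ERK inhibitor, had 2, the stronger at 25.5 and 41.5 (chromosome 2, 65452590 to 65452888). DUSP1, a MAP kinase phosphatase, had 1 at 16.4 and 37.2 (chromosome 5, 172782629 to 172782923), with an AP-1 element. ERRFI1, which binds and inhibits EGFR, had 1 at 21.0 and 21.5 (chromosome 1, 8004798 to 8005125), also with an element. The SPRED2 region had a peak in 6 of the 6 other baseline and control lists, at 5.51 to 23.6, so that only the 12 h controls lacked it, while those at DUSP1 and ERRFI1 had one in 2 and 1 of the 6. The promoter region of SPRY4, another inhibitor of the pathway, had a peak in all 4 lists and was chosen for mention after its values were seen. It stood at 95.4 and 93.6 after EGF and at 78.4 and 76.8 in the controls (chromosome 5, 142324055 to 142326662), a difference of 16.9 points (SE 1.25, limma adjusted p = 0.0145, and 0.0459 after ranking again). The controls had 2 peaks there and the EGF lists 1. With summed scores the values were 95.3 and 93.1 against 84.8 and 83.6, a smaller difference of 9.99 points (SE 0.954, limma adjusted p = 0.0211), and the groups did not overlap on either measure.

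Immediate early genes had 7 gained and 3 lost of 101 regions (6.93% gained). KLF6, a zinc finger factor, had 3 gained regions, the strongest at 23.1 and 48.2 (chromosome 10, 3810079 to 3810486). In lists not used to choose it, that region stood at 56.9 and 50.04 with EGF at 1 h, against 12.5 and 5.14 in the controls. IER3 had 2 gained regions, at means of 2.19 and 11.7, and IER5 1 at a mean of 6.50. All 3 lost regions of the list were the neighbouring ones of NR4A1, which may not be separate losses. The genes of the AP-1 subunits themselves had 1 gained of 56 regions (1.79%), 38338 bp from FOS, at 11.2 and 30.4 (chromosome 14, 75318148 to 75318713). It had a peak in 5 of the 6 other baseline and control lists, with 10.7 and 29.6 in the controls at 24 h.

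For signalling below the receptors, the ERK cascade list had 3 gained of 52 regions (5.77%), 1 each at MAPK3 (ERK1, 18.7 and 35.2), ETV4 (an ETS factor, mean 14.5) and RPS6KA1 (an ERK-activated kinase, mean 14.2). The PI3K, AKT and mTOR list had 5 of 72 (6.94%), with DDIT4, an mTORC1 inhibitor, at 13.9 and 21.2, PIK3CB, a PI3K catalytic subunit, at 8.61 and 23.8, and AKT2 at a mean of 14.1. The DDIT4 region had a peak in 6 of the 6 other baseline and control lists, that at AKT2 in 4, that at PIK3CB in 3 and that at MAPK3 in 2.

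Invasion and adhesion genes had 7 gained of 87 regions (8.05%), in 6 of 19 genes. ITGA6, a laminin receptor subunit, had 2, the stronger at 17.5 and 34.7 with 2 AP-1 elements (chromosome 2, 172442065 to 172442373). ITGB6 had 1 at 36.8 and 41.9 (chromosome 2, 160227358 to 160227627), and PLAU, the urokinase protease, 1 at 28.3 and 21.7 (chromosome 10, 73906670 to 73907220). The regions at ITGB6 and PLAU had a peak in 4 of the 6 other baseline and control lists and that at ITGA6 in 3. A region assigned to ITGA3, named after its values were seen, was higher after EGF, at 97.7 and 98.5 against 92.0 and 93.0 (difference 5.64, SE 0.585, limma adjusted p = 0.0342, and 0.0774 after ranking again). It had 1 peak in each list and passed with summed scores (limma adjusted p = 0.0117).

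Glycolysis and hypoxia genes had 5 gained and 1 lost of 119 regions (4.20% gained), a share near that of all regions. The gained ones included VEGFA, an angiogenic factor, at 29.2 and 60.5 (chromosome 6, 43804112 to 43804866), EGLN3, an oxygen-sensing hydroxylase, at 30.9 and 43.5 (chromosome 14, 34043723 to 34044026), and PFKP, a phosphofructokinase, at a mean of 13.3. The glucose transporter gene SLC2A1 had the lost one, at 6.39 and 3.15 in the controls. The G1 cell cycle list had 3 gained and 1 lost of 46 (6.52% gained): CCND1, cyclin D1, had a gained intronic region at 31.0 and 10.8 (chromosome 11, 69646610 to 69647554), CDKN1A, a cyclin-dependent kinase inhibitor, one at a mean of 4.99, and CCNE1, cyclin E1, a lost region at 0.595 and 2.30 in the controls. Of the 6 other baseline and control lists, 4 had a peak at the VEGFA region, 3 at that of CCND1 and 2 at that of EGLN3.

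The luminal lineage genes had 5 gained of 141 regions (3.55%) and the steroid receptor genes and their targets 3 of 86 (3.49%). For counts this small, both shares are near that of all regions. KRT19 had a gained region at 26.1 and 25.5, TFAP2C one at 15.3 and 28.6 and FOXA1 one at 5.64 and 11.9, while XBP1, CA12 and TSC22D3 had 1 each at means of 14.99, 17.3 and 11.1. The regions at KRT19, TFAP2C and FOXA1 had a peak in 1, 0 and 1 of the 6 other baseline and control lists. Those at XBP1, CA12 and TSC22D3 had a peak in 4, 5 and 3 of them. At FOXA1 that peak stood at 93.7 in baseline replicate 1, and at XBP1 control replicate 1 at 24 h stood at 89.3. Both values were far above those after EGF at 12 h, but each rests on 1 library. Single HRG lists were as high, at 93.7 for FOXA1 (replicate 2, 12 h) and 93.9 for XBP1 (replicate 2, 24 h). In lists outside the 4, a region takes the strongest peak that overlaps it by at least 1 bp, which can be a wider neighbouring one. Whether that was so here was not tested. Regions at KRT8, a luminal keratin, and SPDEF, an ETS factor of luminal cells, both named after their values were seen, were higher after EGF, by 4.59 (SE 0.445, limma adjusted p = 0.0272) and 10.5 points (SE 1.10, limma adjusted p = 0.0351). Neither passed after ranking again (limma adjusted p 0.0621 and 0.0901) or with summed scores (0.158 and 0.0863), and the controls had 2 peaks at both. The NF-kB and cytokine list had 3 of 51 (5.88%), 2 of them at NFKBIA, which encodes the NF-kB inhibitor IkB alpha, the stronger at 34.1 and 33.6 (chromosome 14, 35390871 to 35391346), with a peak in 1 of the 6 other lists. The list of other cell types had 2 of 39 (5.13%), both at CDH5, an endothelial marker whose promoter peak stood at 66.1 and 69.9 after EGF and at 58.9 and 61.8 in the controls.

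The genes with the most gained regions were TSC22D2, PTPN1, ZBTB7C, IRF2BPL and NAV2 with 5 each. PTPN1, a tyrosine phosphatase that acts on receptor kinases, had 24 regions in all, 16 of them with a peak in all 4 lists. Its strongest gained region (chromosome 20, 50440689 to 50441149) stood at 33.8 and 43.9, had no peak in any of the 6 other baseline and control lists, and stood at 65.8 and 55.9 in the EGF lists at 24 h. The strongest at TSC22D2 (chromosome 3, 150362508 to 150362904) stood at 35.3 and 48.5. At ZBTB7C, all 5 were intronic, the strongest at 48.5 and 28.1 (chromosome 18, 48142375 to 48143293). That region had a peak in 5 of the 6 other baseline and control lists, with 49.0 and 46.6 at baseline, levels like those after EGF, and none in either EGF list at 1 h. The TSC22D2 region had a peak in 1 of the 6. In all 254 genes had 2 or more gained regions and 47 had 3 or more. TSC22D2 had 11 regions in all, NAV2 24, IRF2BPL 27 and ZBTB7C 34, against a median of 2 over all genes, and the ranking did not allow for these totals. None of these 5 genes had a lost region, which says little, as 0.446% of all regions were lost and 1.29% of genes had one.

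The strongest gained regions at promoters were below the 8 strongest gained regions in both EGF lists. They were at ASAP2 (chromosome 2, 9323631 to 9324170, 30.6 and 45.4 in the EGF lists), TRIM29 (chromosome 11, 120124972 to 120125451, 29.1 and 46.7), POMT2 (chromosome 14, 77302979 to 77303257, mean 36.6), GIPR (chromosome 19, 45667708 to 45668281, 37.8 and 32.8), CCDC159 (chromosome 19, 11345139 to 11345913, 28.4 and 32.7) and CPLX2 (chromosome 5, 175861843 to 175862262, 30.3 and 30.4). TRIM29 is an epithelial tripartite motif protein, and its region held 2 AP-1 elements. It had a peak in 1 of the 6 other baseline and control lists and stood at 34.7 and 30.9 with EGF at 1 h and at 59.0 and 59.2 with EGF at 24 h. POMT2, a protein mannosyltransferase, had a region with 1 element and no peak in any of those 6 lists, at 51.4 and 51.3 with EGF at 24 h. The CCDC159 region did not follow EGF elsewhere: it stood at 92.2 in control replicate 1 at 1 h, at 29.2 in baseline replicate 1 and at 28.8 in control replicate 2 at 24 h, had no peak in either EGF list at 1 h, and stood at 8.66 and 23.1 with EGF at 24 h. The 92.2 can likewise be that of a wider overlapping peak, and single HRG lists stood at 87.8 (replicate 2, 12 h) and 87.6 (replicate 1, 24 h). The regions at ASAP2, GIPR and CPLX2 had a peak in 4, 1 and 2 of the 6 other baseline and control lists.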

How the data were processed

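ATAC-seq, in which a transposase inserts adapters into open chromatin, was analysed from deposited peak lists. Per the study's methods and the labels, the authors trimmed reads with Trim Galore (version 0.6.6), mapped them with BBMap to GRCh38, removed mitochondrial and blacklisted reads and called peaks with Genrich in each library, without pooling. For Genrich, no options were given in the sources used here. In the deposited lists the authors' score of a peak is an area under the significance curve, never under 200, so weaker peaks are missing, and depth cannot be corrected for. Scores were only ranked within a list or filtered. Read counts were not analysed here.

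Peaks of the 4 lists were merged at an overlap of 1 bp or more. Rank percentiles were tested in limma 3.58.1 (R 4.3.3, trend, two-sided, Benjamini-Hochberg over 43921 regions), which was checked on simulated data. Single values per library were compared by exact permutation. Transcript starts were taken from GENCODE 44, promoters reached 1 kb and gene assignment 100 kb. Motifs were searched within 100 bp of the summit. Python 3.11.15 was used.

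Members, gene lists and motifs were chosen with earlier results of these data known. Named were the 8 gained and 4 lost regions with the highest percentiles, the 6 largest limma differences each way, the 6 genes with most gained regions, the 6 strongest gained promoters, and per list up to 3 genes with most gained regions and any with a lost one, leaving out chromosome 8. Some of these are not reported here. Alternatives were a score of at least 400, lists of equal length, peaks trimmed to 400 bp, 50% of a region covered, regions of all 40 lists, other scales and filters in limma, all 20 BT474 libraries, a replicate block, other distances, and each library left out. Summed scores of all peaks in a region, and regions with 1 peak in each list, were added after the data were seen.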

Additional observations from a re-analysis of the deposited data

How the results depend on the processing

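The excess of gained over lost regions was kept under every alternative run, but its size was not. Lists of equal length gave 1530 gained and 862 lost, peaks trimmed to 400 bp gave 528 lost, and leaving out 1 library gave 3630 to 6879 gained and 731 to 988 lost. The share of regions in 2 of 4 lists that followed EGF and control was 62.6% and became 68.0% at a score of at least 400, 60.7% with equal lists, 57.9% with trimmed peaks and 61.2% with 50% coverage. It needs 4 libraries and was not computed with 1 left out. Higher and lower regions in limma numbered 77 and 5, and became 1919 and 57 with a replicate block, 36 higher after ranking again, 241 and 17 on normal scores, 158 and 22 on quantile-normalised log2 scores, 3214 and 65 with all 20 BT474 libraries, and 40 higher with equal lists. With summed scores, added after the data were seen, they were 605 and 9, and among regions with 1 peak in each list 563 higher. Neither of these alternatives was ranked again within the tested regions. The differences at LSS and MIDEAS turned with summed scores, to 0.0693 and 0.0841 points. Leaving out 1 library gave 32 to 2654 higher and 7 to 489 lower, where the lone library of a group was assumed to vary like the others. The higher share of calls was 93.9% and ranged from 82.1% without EGF replicate 2 to 98.9% among regions with 1 peak in each list. The replicate numbers share only a number: deviations of same-numbered libraries had a correlation of 0.180 over regions, with 2 pairs. The promoter share of gained regions was 27.7% within 3 kb and 11.0% with equal lists. Their AP-1 share was 39.9% within 250 bp, 39.7% with equal lists, and 26.0% to 28.4% with 1 library left out, an alternative added after the data were seen. The genes with a gained region numbered 714 within 10 kb. The differences in peaks per library and in promoter share of peaks kept their direction throughout but not their size, at 2558.5 to 7269.5 peaks and -1.33 to -3.84 percentage points with 1 library left out, and -1.05 points with equal lists. The cause of these movements was not tested. Depth is unknown, and an absent peak can be one below the threshold.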
